A study of Mus musculus with 6 samples.

Results

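The 37 genes described here encode lysosomal hydrolases and their cofactors, proteins of the lysosomal membrane, subunits of the vacuolar proton pump (V-ATPase) and the transcription factor TFEB. They were picked by gene name and made up 37 of the 34844 gene names on the array. Of these members, 36 carried their listed symbol, and *Tfeb* was found under its earlier symbol, *Tcfeb*.

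RNA from BMDMs was hybridized to 1-color mouse arrays to ask how blocking the deubiquitinase USP7 alters the transcriptional response to LPS, a bacterial product sensed by TLR4. The macrophages were derived from the bone marrow of wild-type female C57BL/6 mice, 6 to 8 weeks old by the sample labels, during 7 days in L929-conditioned medium. The LPS group received 100 ng/ml LPS for 4 h, and the LPS+USP7i group received 10 μM of a small-molecule inhibitor of USP7 (USP7i) 30 min before the same LPS; untreated BMDMs were the control. The paper gives another age of the mice. The sample labels and the description of the series differ in the unit of the LPS dose, and the latter is used here. Each group was measured on 2 arrays described as independent experiments. Whether BMDMs given LPS alone received the solvent was not stated, so effects of inhibitor and solvent cannot be told apart. No group received the inhibitor without LPS, so its effects on the LPS response and on unstimulated cells cannot be told apart either.

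Lysosomes are acidic organelles that break down proteins, glycans and lipids delivered by endocytosis, phagocytosis and autophagy. Their hydrolases work at the low pH that the V-ATPase maintains by pumping protons into the lumen, while membrane proteins shield the lysosomal membrane and export products of digestion. In macrophages these enzymes digest engulfed material and prepare antigens, and many of their genes can be switched on by TFEB and related MiT/TFE factors.

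Macrophage markers checked the identity of the cells before the members were compared. All 8 macrophage markers were well above background on all 6 arrays, the brightest being *Csf1r*, the receptor of the growth factor M-CSF, at 18.05 and 17.80 in untreated BMDMs, 17.68 and 17.64 in LPS, and 17.56 and 17.31 in LPS+USP7i (log2 intensity). The summed linear signal of the 8 markers was 559000 and 508000 in untreated BMDMs, 599000 and 586000 in LPS, and 472000 and 425000 in LPS+USP7i. Markers well above background on no array included *Calcr* (osteoclasts), *Flt3* and *Xcr1* (dendritic cells), *Cd3g* (T cells), *Hbb-b1* (erythroid cells), and *Col1a1* and *Pdgfra* (stroma), while *Trac* had no probe. The brightest probes of the other lists were those of *Acp5* (osteoclasts), *Elane* (neutrophils), *Siglech* (dendritic cells), *Cd3e* (T cells), *Cd79a* (B cells), *Ncr1* (NK cells), *Hba-a1* (erythroid cells), *Pdgfrb* (stroma) and *Mcpt8* (mast cells). Summed signals of the dendritic cell list, carried by *Siglech*, were 45000 and 38100 in untreated BMDMs, 25300 and 24900 in LPS, and 51400 and 34700 in LPS+USP7i, but the LPS difference of *Siglech* was not called (−0.73, adjusted p = 0.122). *Zbtb46* of the same list was not above background in untreated BMDMs and was called higher in LPS (at least 5.65-fold, adjusted p = 0.00435) and in LPS+USP7i against untreated (at least 4.41-fold, adjusted p = 0.00806), at 3.93 and 3.95, 6.29 and 6.59, and 5.94 and 6.24 after quantile normalization. Any part of such cells in the members' values was not tested. The osteoclast list, relevant to *Ctsk* and *Atp6v0d2*, summed to 30900 and 29200, 30500 and 29100, and 30200 and 24300 in the same order, mostly from *Acp5*. Of its dimmer markers, *Nfatc1* (10.96 and 11.05, 7.96 and 8.04, and 8.03 and 7.67) was called lower in LPS (8.02-fold, adjusted p = 0.00324) and in LPS+USP7i against untreated (−3.15, adjusted p = 0.00521). *Ocstamp* (5.34 and 5.39, 7.20 and 6.64, and 5.70 and 5.71) was called higher in LPS (1.55, adjusted p = 0.0157) and lower with the inhibitor (−1.21, adjusted p = 0.0468). The stromal *Pdgfrb* was above background on 1 untreated, both LPS and 1 LPS+USP7i array, at 2.86 and 4.34, 8.89 and 8.89, and 3.02 and 5.22, so the size of its differences is not given; it was called higher in LPS (adjusted p = 0.0321) and not called with the inhibitor (adjusted p = 0.064). All 6 neutrophil markers were well above background on all 6 arrays, with sums of 5220 and 6860, 5850 and 11400, and 6190 and 9530 and no call. Their replicates stood apart in each group for *S100a9* (7.68 and 10.72, 9.54 and 12.38, and 8.35 and 11.57) and *Mpo* (8.39 and 6.45, 8.65 and 6.67, and 6.49 and 4.84). None of these called marker differences changed sign under 75th percentile scaling. In bulk RNA, a smaller number of cells of a type and less RNA per cell cannot be told apart.

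All 37 members were well above background on all 6 arrays, and 13 of them had more than 1 probe. Rows 1, 2 and 4 of the single slide held untreated, LPS and LPS+USP7i samples, so slide row and treatment cannot be told apart. With 2 arrays per group an exact permutation test cannot fall below p = 0.333, and calls therefore rest on limma at an adjusted p under 0.05. Limma pools the spread over genes only in part, here with 1.05 prior against 3 residual degrees of freedom.

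Comparison of LPS with untreated BMDMs asks how TLR4 stimulation changed lysosomal transcripts. After quantile normalization, *Ctsc* alone was called higher (2.7% of members) and 10 members were called lower (27%): *Ctsh*, *Gaa*, *Naglu*, *Neu1*, *Lipa*, *Psap*, *Npc1*, *Tfeb*, *Atp6v0d2* and *Atp6v1a*. Among all gene names 7.98% were called higher and 12.8% lower, and among the 15620 gene names well above background on all 6 arrays these shares were 14.1% and 23.9%. The members' share of lower calls was thus near that of other well-measured genes, and their share of higher calls was below it. The median member difference was −0.37 (log2), compared with 0.00 for all gene names and −0.18 for the well-measured ones. For 27 members both LPS arrays lay below both untreated arrays, for 3 they lay above, and for 7 the groups overlapped (73% below and 8.11% above). Among gene names well above background on all arrays these shares were 49.5% and 30.7%, and among all gene names 29.9% and 31%.

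The direction of many members depended on how the arrays were scaled. The 75th percentile of signal was 325 and 458 on untreated arrays, 241 and 288 on LPS arrays, and 233 and 268 on LPS+USP7i arrays. Scaling each array to its 75th percentile instead of quantile normalization moved the median of all gene names by 0.40 between untreated and LPS, by 0.44 between untreated and LPS+USP7i, and by 0.00 between LPS and LPS+USP7i. Under that scaling 12184 gene names were higher in LPS and 4051 lower, against 2779 and 4446 after quantile normalization, and which of these is closer to the RNA content of the cells was not tested. Of the members, 5 (*Ctsc*, *Ctsz*, *Npc2*, *Cln3* and *Atp6v1h*) were then called higher and 3 (*Neu1*, *Npc1* and *Tfeb*) lower, and their median became 0.13, which is −0.27 relative to the all-gene median. The sign changed for 15 of the 37 members and, among the 11 called ones, for *Ctsh* and *Psap*, whereas relative to the all-gene median it changed for 0 of those 11.

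**Figure D1:**
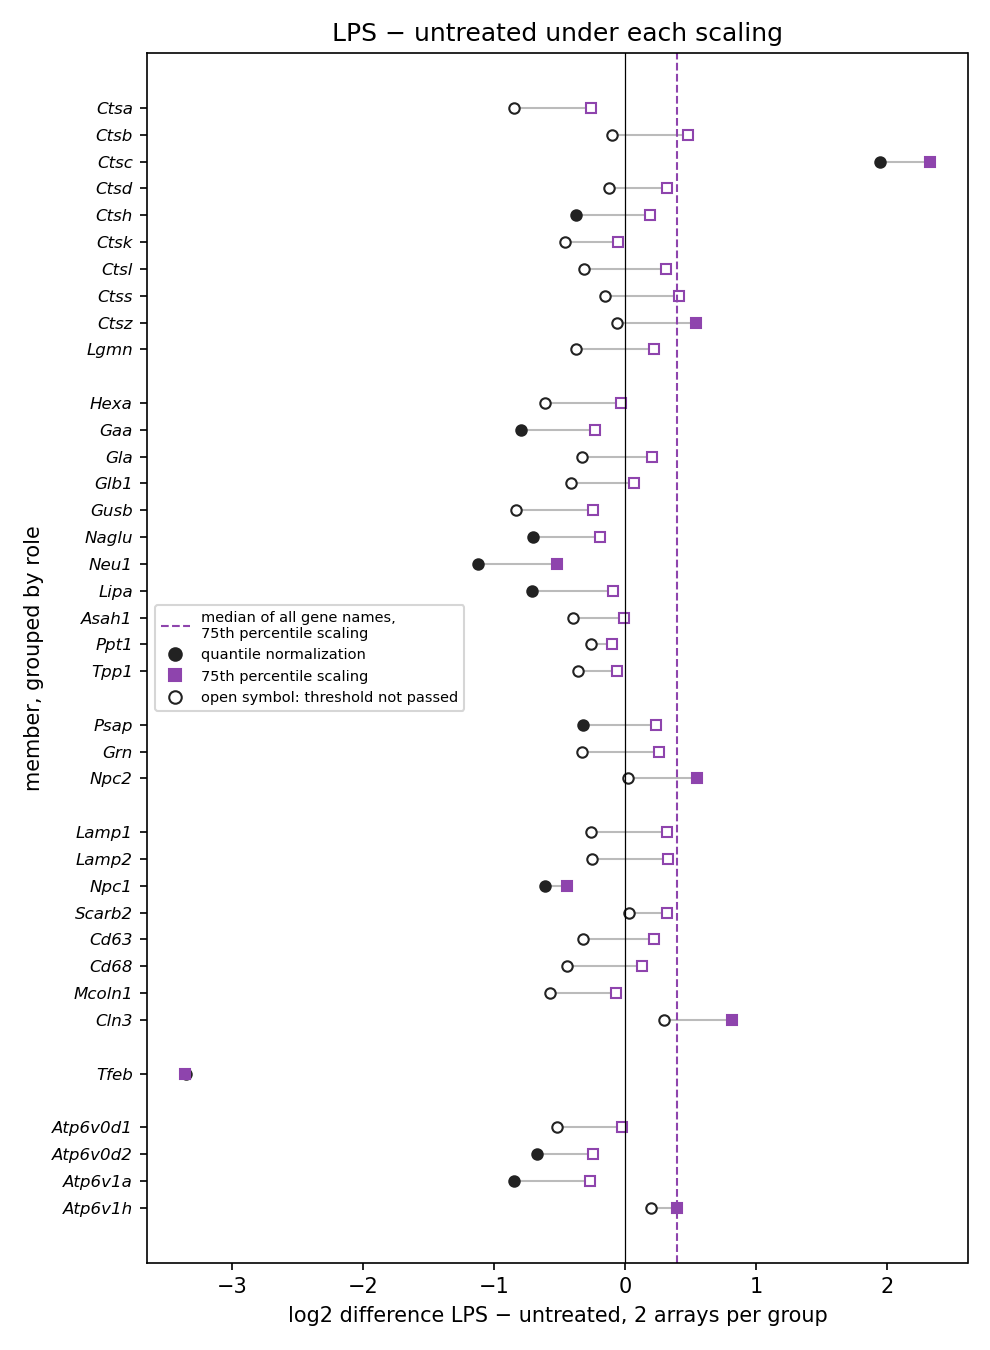
Log2 difference between LPS and untreated BMDMs (horizontal axis) of each member (vertical axis) after quantile normalization (circles) and 75th percentile scaling (squares), filled where the adjusted p is under 0.05, with the all-gene median of 0.40 under the latter as a dashed line. Signs flip for 15 members, among them *Ctsh* (−0.37 and 0.19) and *Psap* (−0.32 and 0.24), while *Tfeb* (−3.35 and −3.36), *Neu1* (−1.12 and −0.52) and *Npc1* (−0.61 and −0.44) are lower under both.

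Many of these calls were lost when a single array was left out, which also leaves fewer arrays to estimate the spread. Without untreated replicate 2, 0 members were called lower by limma (13 at an unadjusted p under 0.05), and without untreated replicate 1 only *Tfeb* was. Leaving out LPS replicate 1 left 4 lower calls (*Gaa*, *Neu1*, *Lipa* and *Tfeb*), and leaving out LPS replicate 2 left 6. The call of *Ctsc* was lost without any of these 4 arrays, with an adjusted p of 0.0922 to 0.12. The median member difference stayed negative, between −0.48 without LPS replicate 2 and −0.30 without LPS replicate 1, but was 0.13 under 75th percentile scaling.

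Comparison of LPS+USP7i with LPS asks what the inhibitor added to stimulation. *Neu1*, *Lipa*, *Npc1*, *Atp6v0d2* and *Atp6v1h* were called higher (13.5% of members, against 5.51% of all gene names and 9.74% of the well-measured ones), with the same sign under 75th percentile scaling. A replicate block, which sets arrays of the same replicate number together, left 1 of these 5 calls, that of *Atp6v1h*. Differences between replicates 1 and 2 correlated at 0.422 between these groups across 20721 probes, although no label pairs the arrays. In limma 0 members were called lower (against 4.28% of all gene names and 7.44% of the well-measured ones), and at an unadjusted p under 0.05 there were 12 higher and 1 lower. The median member difference was 0.16 (0.06 under 75th percentile scaling, which called *Neu1*, *Atp6v0d2* and *Atp6v1h*). For 20 members both LPS+USP7i arrays lay above both LPS arrays, for 2 they lay below, and for 15 the groups overlapped (54.1% above and 5.41% below, against 37.5% and 29.7% of the well-measured gene names and 26.8% and 25.3% of all). When untreated replicate 1 or untreated replicate 2 was left out, 0 members and 0 of all gene names were called in either direction (11 members higher at an unadjusted p under 0.05). The count of members called higher was 1 without LPS replicate 1 (*Atp6v1h*) and 2 without LPS replicate 2 (*Neu1* and *Atp6v1h*). It was 2 without LPS+USP7i replicate 1 (*Tfeb* and *Atp6v1h*) and 3 without LPS+USP7i replicate 2 (*Ctsk*, *Tfeb* and *Atp6v1h*), when 1 member, *Ctsc*, was called lower. Without LPS replicate 2 the median difference was 0.28.

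LPS+USP7i was also set against untreated BMDMs, which gives the combined difference of stimulation and inhibitor. *Atp6v1h* was called higher (2.7% of members, against 6.15% of all gene names), and *Ctsh*, *Naglu* and *Tfeb* were called lower (8.11%, against 8.72%), with *Ctsh* at −0.01 and *Naglu* at −0.22 under 75th percentile scaling. Among the well-measured gene names 10.8% were higher and 16.3% lower. The median member difference was −0.11, and 75th percentile scaling turned it to 0.24 (−0.20 relative to the all-gene median), with 9 members called higher and 1 lower and with 12216 gene names higher and 3363 lower against 2144 and 3040. Leaving out either untreated or either LPS array removed all 3 lower calls (0 in limma, and 4 to 9 at an unadjusted p under 0.05), and only that of *Tfeb* was kept when either LPS+USP7i array was left out. Without LPS+USP7i replicate 1, 2 members were called higher, *Ctsc* and *Atp6v1h*. The 3 comparisons share arrays, so their values are given side by side and are not independent.

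**Figure D2:**
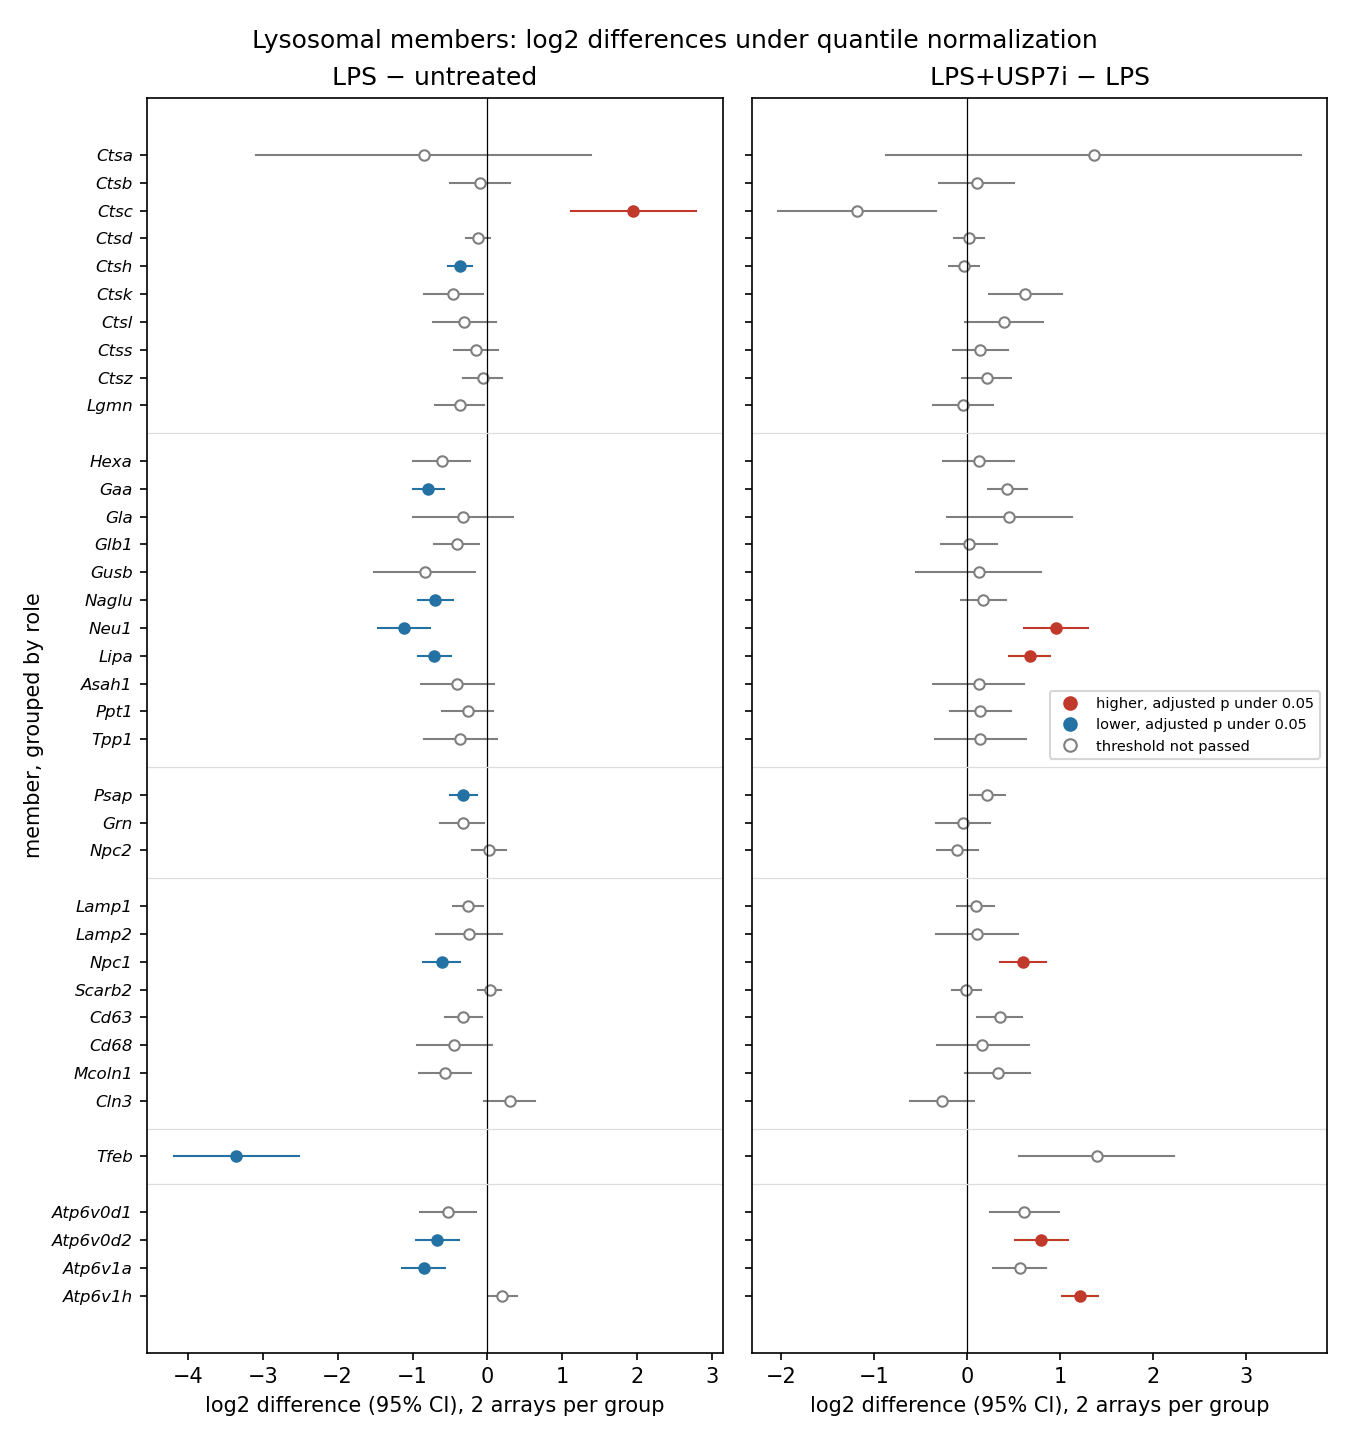
Log2 differences (horizontal axes, with 95% confidence intervals, 2 arrays per group) of the 37 members (vertical axis) for LPS minus untreated and for LPS+USP7i minus LPS after quantile normalization. In LPS *Ctsc* (1.95) is called higher and 10 members lower (−3.35 to −0.32), of which *Ctsh* and *Psap* turn positive under 75th percentile scaling, and with the inhibitor 5 members are called higher (0.60 to 1.21). A replicate block keeps 1 of these 5 calls, that of *Atp6v1h*.

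Over 15 alternative settings (9 ways of processing and 6 fits without an array), the LPS call was kept in 14 for *Tfeb*, 13 for *Neu1*, 12 for *Lipa*, 11 each for *Ctsc*, *Gaa* and *Naglu*, 10 for *Atp6v1a*, 8 for *Npc1*, 7 each for *Ctsh* and *Atp6v0d2*, and 6 for *Psap*. Their adjusted p ranged from 0.000262 to 0.051 for *Tfeb*, 0.00097 to 0.0706 for *Neu1*, 0.0014 to 0.12 for *Ctsc*, 0.000982 to 0.52 for *Lipa*, 0.00586 to 0.11 for *Npc1* and 0.0179 to 0.29 for *Psap*. With the inhibitor the call was kept in 12 for *Atp6v1h*, 8 for *Neu1*, 6 for *Lipa*, and 5 each for *Npc1* and *Atp6v0d2* (highest adjusted p = 0.0563, 0.107, 0.089, 0.122 and 0.102). The deposited log2 table ended the LPS calls of *Ctsh* (adjusted p = 0.262), *Psap* (0.29), *Npc1* (0.0755) and *Atp6v0d2* (0.0561) and the inhibitor calls of *Npc1* (0.119) and *Atp6v0d2* (0.0569). Averaging all probes of a gene ended the calls of *Gaa* (−0.57, adjusted p = 0.134) and *Atp6v0d2* (−0.55 and 0.67, adjusted p = 0.104 and 0.0929). Fitting only LPS and LPS+USP7i called 0 of all gene names and so ended all 5 inhibitor calls, at 0.0563 for *Atp6v1h* and up to 0.105 for *Npc1*. In effect, leaving out either untreated array repeats this fit, because a lone array adds nothing to the estimated spread. Leaving out either LPS+USP7i array likewise repeats a fit of only untreated and LPS. The 15 settings are therefore not all distinct, and calls kept or lost in such fits are counted more than once. All losses of the *Atp6v1h* inhibitor call came from such fits.

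*Tfeb* encodes a helix-loop-helix factor that binds E-boxes near many lysosomal genes, and among the brightest probes of the members it had the largest difference in LPS, 10.2-fold lower than in untreated BMDMs. Its probe (chromosome 17, 47929089 to 47929148, mm9) measured 9.84 and 9.71 in untreated BMDMs, 6.45 and 6.39 in LPS, and 8.22 and 7.39 in LPS+USP7i. Untreated arrays were high, LPS arrays low and LPS+USP7i arrays between them, with no overlap of groups. The LPS difference was −3.35 (SE 0.30, adjusted p = 0.0073) and −3.36 under 75th percentile scaling. With the inhibitor *Tfeb* was 1.39 above LPS without passing the threshold (95% confidence interval 0.55 to 2.22, adjusted p = 0.0789), and it remained below untreated BMDMs by −1.97 (SE 0.30, adjusted p = 0.0291; −1.95 under 75th percentile scaling). Without untreated replicate 2 the LPS call was lost (−3.42, adjusted p = 0.051), and the call against untreated BMDMs was lost without either untreated or either LPS array (adjusted p = 0.082 to 0.134, with −1.90 at the upper end, without untreated replicate 1). The inhibitor difference was called when either LPS+USP7i array was left out, at 0.97 without replicate 1 (adjusted p = 0.0469) and 1.80 without replicate 2 (adjusted p = 0.0242). A second probe of *Tfeb* was above background on no array.

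Because TFEB binds the E-box CACGTG, promoter windows from 250 bases before to 50 bases after annotated starts were searched for it and for the longer TCACGTGA. The RefSeq table (GRCm38.p6) held windows for 31 members (37 windows), and none for *Ctsb*, *Ctsh*, *Asah1*, *Npc1*, *Atp6v0d2* and *Atp6v1h*. CACGTG occurred in 13 members (35.1% of their windows, against 7.15% of all 32851 windows) and TCACGTGA in 7 members (18.9%, against 0.974%). Of the members called lower in LPS, *Gaa*, *Naglu* and *Atp6v1a* had a match before the start, whereas windows of *Neu1*, *Lipa*, *Psap* and *Tfeb* itself had none. A match is a description of the sequence, not a site, and binding was not tested. Stretches before the start are printed for those 3 genes, at chr11:119267797-119267854 (plus strand), chr11:101069995-101070052 (plus) and chr16:44139358-44139417 (minus), because they were called in LPS. Those of *Gla* (chrX:134601167-134601255, minus), *Lamp1* (chr8:13159074-13159160, plus), *Mcoln1* (chr8:3500422-3500506, plus) and *Cln3* (chr7:126583325-126583411, minus) are printed because they hold more than 1 match. *Ctsd* also had matches at 99 and 245 bases before the start, the nearer being TCACGTGA, in separate stretches that are not printed. Capitals mark CACGTG or TCACGTGA.
Gaa: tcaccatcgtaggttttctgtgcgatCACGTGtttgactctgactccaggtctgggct
Naglu: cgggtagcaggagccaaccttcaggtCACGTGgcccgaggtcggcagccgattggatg
Atp6v1a: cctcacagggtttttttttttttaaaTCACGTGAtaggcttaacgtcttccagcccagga
Gla: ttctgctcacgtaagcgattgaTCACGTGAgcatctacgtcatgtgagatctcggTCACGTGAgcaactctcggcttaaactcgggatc
Lamp1: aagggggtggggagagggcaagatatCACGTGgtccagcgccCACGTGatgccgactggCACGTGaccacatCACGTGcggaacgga
Mcoln1: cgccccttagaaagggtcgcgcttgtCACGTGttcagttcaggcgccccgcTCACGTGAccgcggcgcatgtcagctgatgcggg
Cln3: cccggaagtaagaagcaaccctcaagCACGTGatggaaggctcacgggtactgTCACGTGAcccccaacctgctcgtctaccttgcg

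All 4 subunits of the V-ATPase, the pump that acidifies the lysosome, were higher on both LPS+USP7i arrays than on both LPS arrays (0.57 to 1.21), with the same sign under 75th percentile scaling (0.38 to 1.13). Both LPS+USP7i arrays also lay above both LPS arrays for 37.5% of the well-measured gene names. Of the 4, *Atp6v0d2* and *Atp6v1h* were called, and both calls were kept under 75th percentile scaling. Of 14 V-ATPase subunits and accessory proteins outside the member list, 12 had positive inhibitor differences and 10 had both LPS+USP7i arrays above both LPS arrays. Called were *Atp6v1c1* (0.77, adjusted p = 0.0462; 0.61 under 75th percentile scaling, adjusted p = 0.0784) and *Atp6v1g1* (0.49, adjusted p = 0.0292; 0.29 under that scaling, adjusted p = 0.213), each call being lost without any 1 of the 6 arrays. *Atp6v0a2* (−0.37, adjusted p = 0.205) and *Atp6v1e1* (−0.27, adjusted p = 0.135) had negative differences, uncalled. *Atp6v1h*, the regulatory subunit H that couples the cytosolic V1 sector to the membrane, measured 11.11 and 11.10 in untreated BMDMs, 11.30 and 11.32 in LPS, and 12.46 and 12.58 in LPS+USP7i. Both LPS+USP7i arrays were high, and untreated and LPS arrays were low and close together without overlapping. *Atp6v1h* was thus 2.31-fold higher in LPS+USP7i than in LPS (1.21, SE 0.07, adjusted p = 0.0113) and 2.66-fold higher than in untreated BMDMs (1.41, adjusted p = 0.00537), at 1.13 and 1.53 under 75th percentile scaling. Its LPS difference of 0.20 was not called (95% confidence interval 0.01 to 0.39, adjusted p = 0.15), although 75th percentile scaling called it (0.40, which equals the all-gene shift). The inhibitor call was lost without untreated replicate 1 or untreated replicate 2 (adjusted p = 0.0563 in each case).

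Of the remaining V-ATPase members, *Atp6v1a* and *Atp6v0d2* were called lower in LPS after quantile normalization and none under 75th percentile scaling, where their differences stayed negative. *Atp6v1a*, the catalytic subunit A, measured 15.72 and 15.79 in untreated BMDMs, 14.85 and 14.96 in LPS, and 15.36 and 15.58 in LPS+USP7i, the last lying between the other groups. It was lower in LPS (−0.85, SE 0.10, adjusted p = 0.0134; −0.27 under 75th percentile scaling, adjusted p = 0.248), and a second probe gave −0.83 (adjusted p = 0.024). *Atp6v0d2*, a d subunit of the membrane sector first known from osteoclasts, measured 13.03 and 13.12, 12.32 and 12.48, and 13.28 and 13.11 in the same order, with LPS low and the other groups overlapping. It was called lower in LPS (−0.67, SE 0.10, adjusted p = 0.0233; −0.24 under 75th percentile scaling) and higher in LPS+USP7i than in LPS (0.79, SE 0.10, adjusted p = 0.0298), while its second probe passed neither threshold (−0.44 and 0.55, adjusted p = 0.375 and 0.312). The ubiquitous d subunit *Atp6v0d1* was also low on the LPS arrays, without a call, at 13.55 and 13.70, 13.09 and 13.11, and 13.87 and 13.55. Its differences were −0.52 in LPS (95% confidence interval −0.90 to −0.15; −0.02 under 75th percentile scaling) and 0.61 with the inhibitor (0.24 to 0.99, adjusted p = 0.0821), the former called when either LPS+USP7i array was left out (adjusted p = 0.0478). Both LPS calls were lost without any of the untreated or LPS arrays (highest adjusted p = 0.117 for *Atp6v0d2* and 0.08 for *Atp6v1a*, both without untreated replicate 2). The inhibitor call of *Atp6v0d2* was lost without any 1 of the 6 arrays (0.0502 to 0.102).

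All 11 hydrolases other than cathepsins had both LPS arrays below both untreated arrays (−1.12 to −0.26), although *Gla* and *Glb1* turned to 0.21 and 0.07 under 75th percentile scaling. Both LPS arrays also lay below both untreated arrays for 49.5% of the well-measured gene names, and 4 of the 11 hydrolases were called while 7 were not. *Neu1*, the sialidase that trims sialic acid from glycoproteins, measured 14.75 and 14.83 in untreated BMDMs, 13.53 and 13.81 in LPS, and 14.69 and 14.56 in LPS+USP7i. Only the LPS arrays were low, and those of LPS+USP7i lay just under the untreated ones. *Neu1* was 2.17-fold lower in LPS (−1.12, SE 0.12, adjusted p = 0.0113; −0.52 under 75th percentile scaling, also called) and higher again in LPS+USP7i by 0.95 (SE 0.12, adjusted p = 0.0299; 0.76 under that scaling). Against untreated BMDMs the inhibitor group differed by −0.16 (95% confidence interval −0.51 to 0.18; 0.24 under 75th percentile scaling). *Lipa*, the acid lipase that frees cholesterol and fatty acids, followed the same course at 14.96 and 14.88, 14.14 and 14.28, and 14.91 and 14.85, with untreated and LPS+USP7i arrays overlapping. Its differences were −0.71 in LPS (SE 0.08, adjusted p = 0.0118; −0.09 under 75th percentile scaling) and 0.67 with the inhibitor (SE 0.08, adjusted p = 0.0265; 0.50 under that scaling, adjusted p = 0.0756).

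*Gaa*, which digests glycogen, measured 14.39 and 14.40 in untreated BMDMs, 13.53 and 13.67 in LPS, and 13.99 and 14.07 in LPS+USP7i, with the inhibitor group between the other groups. It was lower in LPS by −0.79 (SE 0.08, adjusted p = 0.00851; −0.23 under 75th percentile scaling), whereas a dimmer probe gave −0.12 (adjusted p = 0.716), and it was higher with the inhibitor by 0.43, short of the threshold (95% confidence interval 0.22 to 0.64, adjusted p = 0.0539). *Naglu*, which removes N-acetylglucosamine from heparan sulfate, measured 13.67 and 13.71, 12.93 and 13.06, and 13.23 and 13.10, so that the inhibitor group stayed nearer to LPS than to untreated BMDMs. Its LPS difference was −0.70 (SE 0.09, adjusted p = 0.0138; −0.19 under 75th percentile scaling), its inhibitor difference 0.17 (−0.07 to 0.41; −0.03 under that scaling), and its difference from untreated BMDMs −0.52 (adjusted p = 0.0334; −0.22 under that scaling). The LPS calls of *Neu1*, *Lipa* and *Gaa* were lost without untreated replicate 1 or untreated replicate 2 (highest adjusted p = 0.0706, 0.0672 and 0.0582), and that of *Naglu* also without LPS replicate 1 (highest 0.0819, without untreated replicate 2). With the inhibitor, *Neu1* was called in only 1 of the fits without an array (without LPS replicate 2) and *Lipa* in 0 of them, with highest adjusted p of 0.107 and 0.089, both without LPS+USP7i replicate 1. The uncalled hydrolases *Hexa*, *Gla*, *Glb1*, *Gusb*, *Asah1*, *Ppt1* and *Tpp1*, which act on glycans, ceramide, lipid anchors and peptides, ranged from −0.83 (*Gusb*, 95% confidence interval −1.51 to −0.16) to −0.26 (*Ppt1*, −0.60 to 0.07) in LPS, with *Gla* and *Glb1* positive under 75th percentile scaling. *Hexa* was called lower when either LPS+USP7i array was left out (−0.61, adjusted p = 0.0413). With the inhibitor these 7 lay between 0.02 and 0.45, uncalled, but *Hexa*, *Glb1*, *Gusb* and *Asah1* turned to −0.05, −0.17, −0.07 and −0.04 under 75th percentile scaling.

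**Figure D3:**
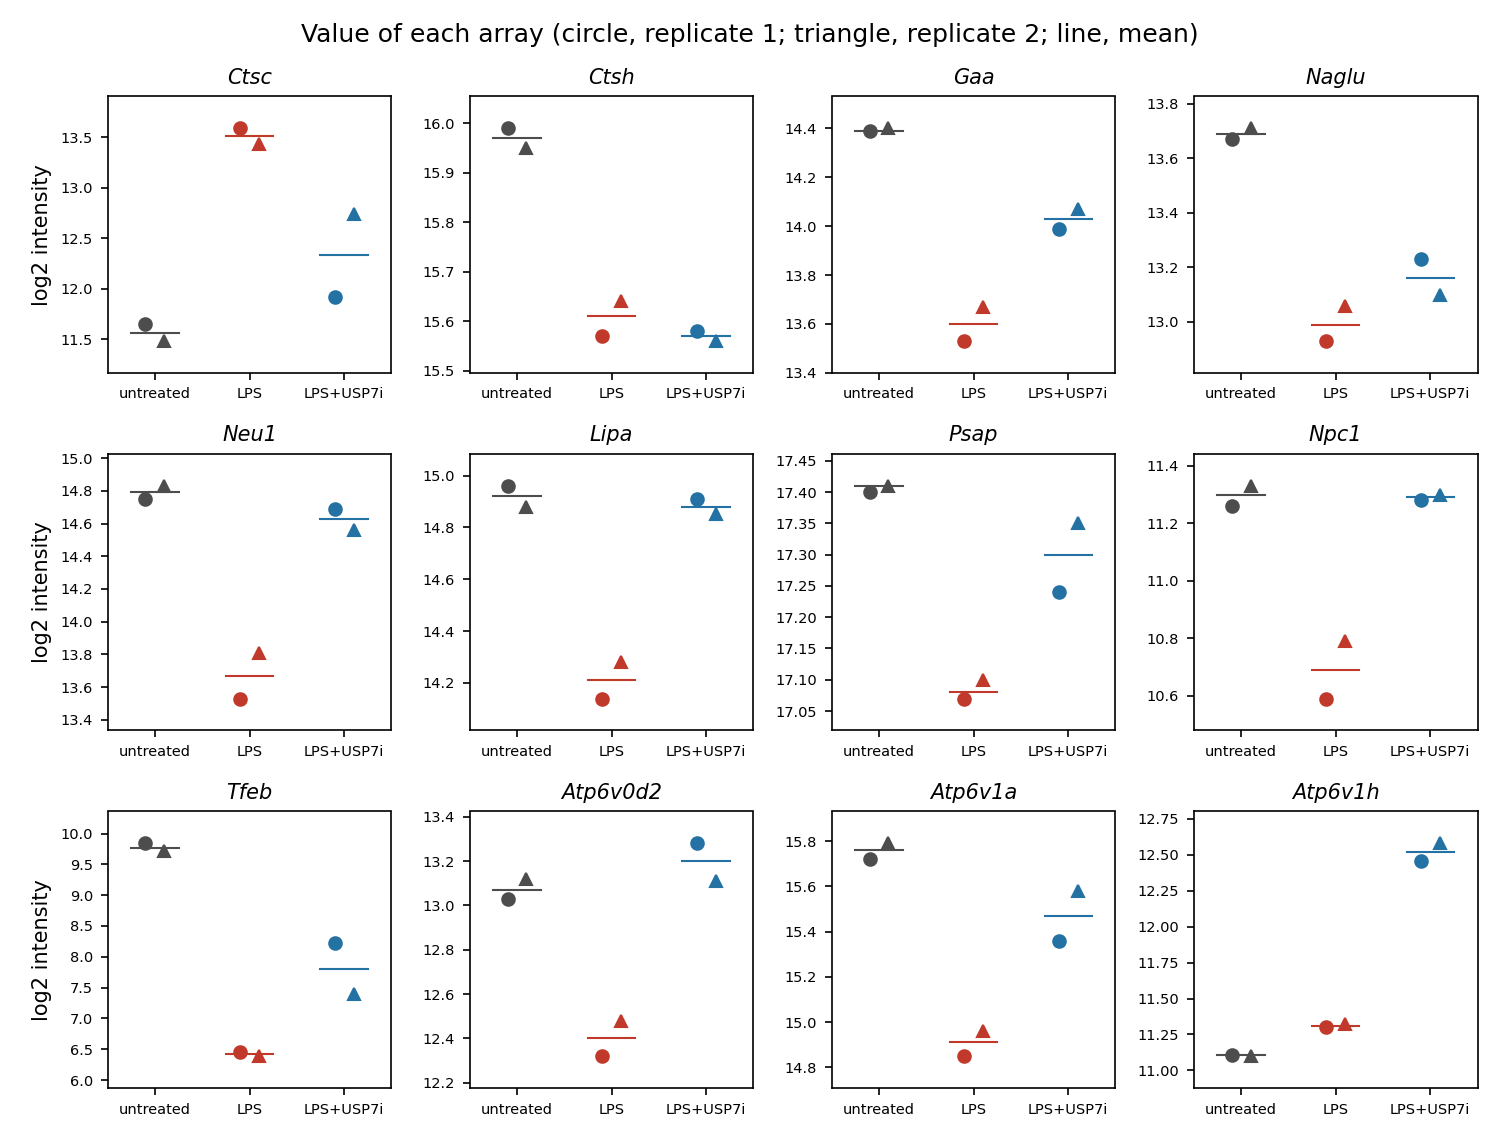
Log2 intensity (vertical axes, each with its own range) of the members called in LPS or with the inhibitor, on each array of untreated, LPS and LPS+USP7i samples (circles, replicate 1; triangles, replicate 2; lines, means). *Neu1*, *Lipa*, *Npc1* and *Atp6v0d2* are low in LPS only, *Atp6v1h* is high in LPS+USP7i only, *Ctsc* is highest in LPS, and the lower values of *Ctsh* and *Psap* in LPS turn to 0.19 and 0.24 above untreated under 75th percentile scaling.

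Among the cathepsins and legumain, the lysosomal proteases, 1 of 10 was called higher in LPS and 1 lower, with differences from −0.85 to 1.95. *Ctsc*, which activates serine proteases of granules, measured 11.65 and 11.48 in untreated BMDMs, 13.59 and 13.44 in LPS, and 11.92 and 12.74 in LPS+USP7i (probe on chromosome 7, 95458436 to 95458495, mm9). LPS arrays were high, untreated arrays low, and the LPS+USP7i arrays lay apart from each other between them. *Ctsc* was 3.86-fold higher in LPS (1.95, SE 0.31, adjusted p = 0.0242; 2.33 under 75th percentile scaling) and differed by −1.19 with the inhibitor, which did not pass the threshold (95% confidence interval −2.03 to −0.34, adjusted p = 0.111). A second *Ctsc* probe read 5.37 and 4.42, 10.32 and 9.98, and 7.54 and 8.80 in the same order, with differences of 5.25 (adjusted p = 0.0106) in LPS, −1.98 (adjusted p = 0.14) with the inhibitor and 3.27 (adjusted p = 0.0389) in LPS+USP7i against untreated. The LPS call from the brighter probe was lost without any of the untreated or LPS arrays (highest adjusted p = 0.12, with 1.87, without untreated replicate 2). Without LPS+USP7i replicate 2 the inhibitor difference of *Ctsc* was called (−1.60, adjusted p = 0.0305), and without LPS+USP7i replicate 1 its difference from untreated BMDMs was (1.18, adjusted p = 0.0368), both on the brighter probe.

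*Ctsh*, an aminopeptidase, measured 15.99 and 15.95 in untreated BMDMs, 15.57 and 15.64 in LPS, and 15.58 and 15.56 in LPS+USP7i, where LPS and LPS+USP7i arrays overlapped below the untreated ones. Its differences from untreated BMDMs were −0.37 in LPS (SE 0.06, adjusted p = 0.0267) and −0.40 in LPS+USP7i (adjusted p = 0.0271), but 0.19 and −0.01 under 75th percentile scaling. Leaving out any untreated or LPS array ended the LPS call (highest adjusted p = 0.124, without untreated replicate 1), and leaving out any 1 of the 6 arrays ended the other (highest 0.127, without untreated replicate 1). *Ctsk*, a collagen-degrading cathepsin of osteoclasts and macrophages, measured 12.79 and 12.69, 12.23 and 12.33, and 13.08 and 12.73, low in LPS and overlapping between the other groups. Neither its LPS difference (−0.46, 95% confidence interval −0.85 to −0.06, adjusted p = 0.128; −0.05 under 75th percentile scaling) nor its inhibitor difference (0.62, 0.23 to 1.02, adjusted p = 0.0879) was called, the latter passing only without LPS+USP7i replicate 2 (0.80, adjusted p = 0.0449) among the fits without an array. *Ctsa*, a carboxypeptidase that protects NEU1, varied between replicates on its brighter probe (14.05 and 15.75 within LPS), so its differences of −0.85 (−3.09 to 1.38) and 1.36 (−0.87 to 3.59) had wide intervals. A dimmer *Ctsa* probe was called lower in LPS (−0.67, adjusted p = 0.041) and higher with the inhibitor (0.84, adjusted p = 0.0409). The broad proteases *Ctsb*, *Ctsd*, *Ctsl*, *Ctss* and *Ctsz* and the asparagine-specific *Lgmn* differed by −0.37 to −0.06 in LPS, uncalled, and all 6 turned positive under 75th percentile scaling (0.22 to 0.54), where *Ctsz* was called (0.54, adjusted p = 0.00677).

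Of the luminal cofactors and carriers, *Psap*, precursor of the saposins that present glycolipids to hydrolases, was called lower in LPS by a small difference. It measured 17.40 and 17.41 in untreated BMDMs, 17.07 and 17.10 in LPS, and 17.24 and 17.35 in LPS+USP7i, with no overlap and the inhibitor group in between. The LPS difference of −0.32 (SE 0.07, adjusted p = 0.0469) became 0.24 under 75th percentile scaling, and the inhibitor difference of 0.21 was not called (95% confidence interval 0.03 to 0.40, adjusted p = 0.162). The *Psap* call was lost without any of the untreated or LPS arrays (adjusted p = 0.116 to 0.182, the highest without untreated replicate 2). *Grn*, the precursor of lysosomal granulins, differed by −0.33 in LPS (−0.63 to −0.04; 0.26 under 75th percentile scaling). The cholesterol carrier *Npc2* differed by 0.02 (−0.20 to 0.25), and 75th percentile scaling called it higher (0.55, adjusted p = 0.00798).

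*Npc1*, the membrane protein that takes cholesterol from NPC2, was the called member of its role of 8. It measured 11.26 and 11.33 in untreated BMDMs, 10.59 and 10.79 in LPS, and 11.28 and 11.30 in LPS+USP7i, with only the LPS arrays low and the other groups overlapping. The differences were −0.61 in LPS (SE 0.09, adjusted p = 0.0212; −0.44 under 75th percentile scaling, also called) and 0.60 with the inhibitor (SE 0.09, adjusted p = 0.0388; 0.55 under that scaling, adjusted p = 0.0906). The inhibitor call of *Npc1* was lost without any 1 of the 6 arrays (highest adjusted p = 0.122, without LPS+USP7i replicate 1), and the LPS call was kept only when LPS replicate 2 was left out (highest 0.11, without untreated replicate 2). *Cd68*, a heavily glycosylated macrophage sialomucin, measured 17.41 and 17.72, 16.94 and 17.32, and 17.26 and 17.32 in the order untreated, LPS and LPS+USP7i, and the LPS+USP7i arrays overlapped those of LPS. Its differences of −0.44 (95% confidence interval −0.94 to 0.06; 0.13 under 75th percentile scaling) and 0.16 (−0.33 to 0.66) were not called. A dimmer *Cd68* probe, at 13.73 and 13.81, 13.35 and 13.33, and 13.78 and 13.76, was called lower in LPS (−0.43, adjusted p = 0.0185; 0.08 under 75th percentile scaling) and higher with the inhibitor (0.43, adjusted p = 0.0332).

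Other membrane proteins passed no threshold on their brightest probes. The calcium channel *Mcoln1* came nearest in LPS (−0.57, 95% confidence interval −0.91 to −0.22, adjusted p = 0.0551; −0.07 under 75th percentile scaling), and its second probe was at least 3.11-fold brighter in untreated BMDMs than in LPS, where it was not above background. The structural glycoproteins *Lamp1* and *Lamp2* differed by −0.26 and −0.25 (0.32 and 0.33 under 75th percentile scaling), and the tetraspanin *Cd63* by −0.32 (0.22 under that scaling). *Cd63* was 0.35 above LPS with the inhibitor (0.10 to 0.59, adjusted p = 0.11). *Scarb2*, the receptor that carries glucocerebrosidase, differed by 0.03 in LPS (−0.13 to 0.18) and −0.01 with the inhibitor (−0.16 to 0.15). *Cln3*, a lysosomal transporter, differed by 0.30 in LPS (−0.04 to 0.64) and −0.27 with the inhibitor (−0.62 to 0.07), and it was called in LPS under 75th percentile scaling (0.82, adjusted p = 0.00563). A dimmer *Cln3* probe was called higher in LPS (1.13, adjusted p = 0.0138) and lower with the inhibitor (−1.07, adjusted p = 0.0298).

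The other 91 genes of the pathway, listed by role and not among the members, are given for context. In LPS 6 were called higher (6.59%) and 31 lower (34.1%), against 14.1% and 23.9% of the well-measured gene names, and under 75th percentile scaling 18 and 16. After quantile normalization both counts fell when an untreated or LPS array was left out. The median LPS difference was −0.38, and −0.39 to −0.31 with arrays left out, but −0.01 under 75th percentile scaling. With the inhibitor 17 were higher (18.7%) and 2 lower (2.2%) than in LPS, against 9.74% and 7.44%, and under 75th percentile scaling 9 and 3. Fitting only LPS and LPS+USP7i called 0 in either direction, and a replicate block called 13 higher and 4 lower. Fewer were called higher whichever array was left out. The median inhibitor difference of the 91 genes was 0.19, and 0.13 to 0.23 with arrays left out. *Flcn*, *Fnip1* and *Fnip2*, whose products act with Rag GTPases to hold TFEB and TFE3 in the cytosol, were lower in LPS by −3.29, −1.73 and −3.48 (adjusted p = 0.00671, 0.00319 and 0.00289) and higher with the inhibitor by 2.71, 1.43 and 2.67 (adjusted p = 0.0213, 0.0113 and 0.0111). *Flcn* measured 12.71 and 12.49 in untreated BMDMs, 9.45 and 9.16 in LPS, and 12.36 and 11.66 in LPS+USP7i, while *Fnip2* measured 12.72 and 12.74, 9.28 and 9.22, and 12.10 and 11.73. Among the relatives of *Tfeb*, *Tfec* was higher in LPS (4.15, SE 0.46, adjusted p = 0.011) at 7.51 and 7.83 in untreated BMDMs, 11.58 and 12.06 in LPS, and 10.94 and 12.09 in LPS+USP7i. *Cst7*, an inhibitor of cathepsins C and L, rose by 3.81 in LPS (adjusted p = 0.0139) and differed by −3.33 with the inhibitor (adjusted p = 0.0345), with 11.69 and 11.59 in LPS against 7.76 and 8.87 in LPS+USP7i. The cystine exporter *Ctns* was lower in LPS (−1.99, adjusted p = 0.0122) and higher with the inhibitor (1.96, adjusted p = 0.0254). None of these called differences changed sign in any setting tried, 75th percentile scaling included. The relative *Tfe3* was called lower in LPS (−0.79, adjusted p = 0.00511; −0.28 under 75th percentile scaling, adjusted p = 0.0529) and higher with the inhibitor (0.37, adjusted p = 0.039; 0.17 under that scaling, adjusted p = 0.387). Its LPS call was kept without any array, and its inhibitor call was lost without any 1 of the 6. *Mitf* differed by 1.37 in LPS, uncalled (adjusted p = 0.0787), and was called under 75th percentile scaling (1.88, adjusted p = 0.0187).

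Leaving out arrays ended some of these calls as well. Without untreated replicate 1 or untreated replicate 2, the inhibitor calls of *Flcn* (adjusted p up to 0.0817, without LPS replicate 2), *Fnip1*, *Fnip2* (both 0.0561), *Ctns* (up to 0.0962, without LPS replicate 2) and *Cst7* (up to 0.136, without LPS replicate 1) were lost. Those of *Flcn*, *Ctns* and *Cst7* were lost without either LPS array too, and that of *Cst7* without LPS+USP7i replicate 1. The LPS calls of *Flcn*, *Fnip1* and *Fnip2* were kept without any array, whereas those of *Tfec*, *Cst7* and *Ctns* were lost without each untreated and LPS array (highest adjusted p = 0.0658, 0.0757 and 0.071).

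**Figure D4:**
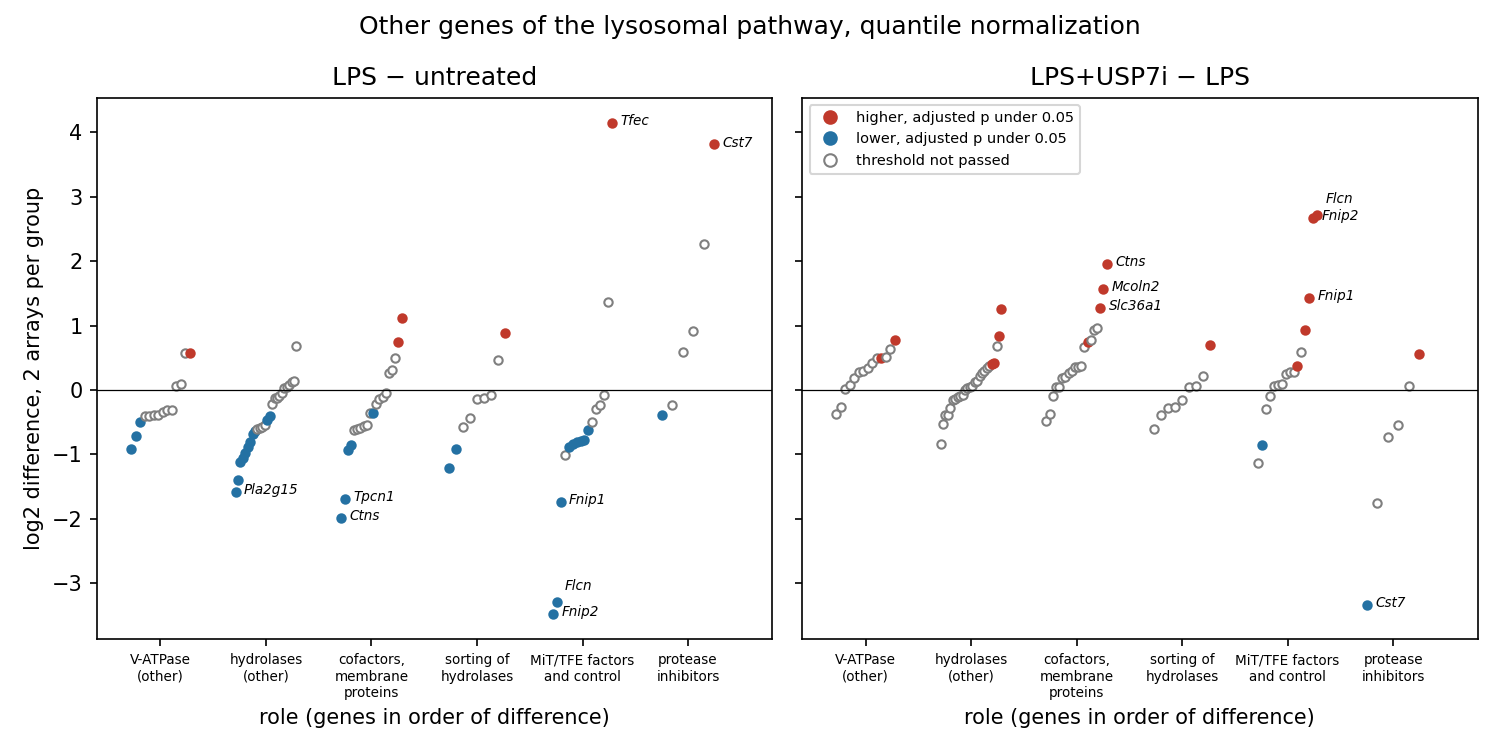
Log2 differences (vertical axis, 2 arrays per group) of the 91 other genes of the pathway by role (horizontal axis, genes in order of difference) for LPS minus untreated and LPS+USP7i minus LPS after quantile normalization, filled where the adjusted p is under 0.05. *Flcn* (−3.29 and 2.71) and *Fnip2* (−3.48 and 2.67) are low in LPS and higher with the inhibitor, *Cst7* (3.81 and −3.33) does the opposite, and under 75th percentile scaling the split in LPS changes from 6 higher and 31 lower to 18 and 16.

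Further genes called in LPS included *M6pr* (0.89), *Cd164* (0.75) and *Atp6v1e1* (0.57), higher in LPS, and *Tpcn1* (−1.69) and *Pla2g15* (−1.58), lower in LPS. With the inhibitor, *Mcoln2* (1.57) and *Slc36a1* (1.27) were higher and *Mtor* (−0.86) was lower than in LPS. In LPS+USP7i against untreated BMDMs, *Tfec* (3.84), *Mcoln2* (1.89), *Slc36a1* (1.77), *Cd164* (1.11) and *M6pr* (0.95) were higher, and *Tpcn1* (−1.64), *Gga3* (−1.17), *Mtor* (−0.94), *Galc* (−0.93), *Manba* (−0.90) and *Pla2g15* (−0.89) were lower. None of these changed sign under 75th percentile scaling. The inhibitor call of *Mcoln2* was lost without any 1 of the 6 arrays (adjusted p = 0.051 to 0.0767), that of *Mtor* without any but LPS+USP7i replicate 2 (0.0522 to 0.0619), and that of *Slc36a1* without any untreated or LPS array (0.101 to 0.131). The LPS call of *Cd164* was lost without any array but LPS replicate 1 (0.0717 to 0.126) and that of *Atp6v1e1* without any untreated or LPS array (0.0697 to 0.0874). Against untreated BMDMs the call of *Pla2g15* was lost without any 1 of the 6 arrays (0.0518 to 0.122), those of *Cd164* and *Galc* without any untreated or LPS+USP7i array (up to 0.0816 and 0.115), and that of *Tfec* without any untreated or LPS array (up to 0.0916). Those of *Mcoln2*, *Slc36a1* and *Gga3* were lost without either untreated array (up to 0.0683, 0.0747 and 0.0892; *Gga3* also without LPS+USP7i replicate 1), and those of *M6pr*, *Manba* and *Mtor* without untreated replicate 2 (0.06, 0.0556 and 0.0532). Protein levels, lysosomal pH and enzyme activity were not measured.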

How the data were processed

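RNA of 6 samples (untreated, LPS and LPS+USP7i, 2 arrays each) had been hybridized to 1-color Agilent mouse arrays on 1 slide. The authors deposited scanner files with background-corrected spot intensities (processed signal, Feature Extraction 10.7.3.1) and a table of log2 values, for which the paper's methods name limma and quantile normalization. Here the deposited intensities of all spots that were not controls were taken to log2 and quantile-normalized between arrays. Flagged spots were then left out, spots of a probe averaged, and 55680 probes tested. All 6 arrays were fitted together (R 4.3.3, limma 3.58.1, two-sided, Benjamini-Hochberg over all probes, threshold 0.05). The procedure was also run on simulated data with independent replicates and changes larger than those of most members. That run does not show how well differences of the members' size are found. A gene was represented by its brightest probe. Of the 59305 spots per array that were not controls, "well above background" is the scanner software's flag. Alternatives were 75th percentile scaling, normexp background correction (offset 50), the deposited log2 table, a filter on dim probes, outlier spots kept, only the groups compared, a replicate block, a variance trend, probe means and leaving out each array.

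Per-array values are given for members past the threshold (at most 4 per role, direction and comparison), for *Tfeb*, *Cd68*, *Ctsk*, *Atp6v0d1* and *Atp6v0d2*, and for other probes of these genes, *Flcn*, *Fnip2*, *Tfec*, *Cst7*, *Zbtb46*, *Nfatc1*, *Ocstamp*, *Pdgfrb*, *S100a9* and *Mpo*, the last sets chosen after their values were seen. Of the 91 other pathway genes at most the 6 largest called differences per direction and comparison are named, besides *Tfe3*, *Mitf* and 3 V-ATPase subunits, added after their values were seen. Markers named are the brightest of each list and most of those above background on no array. Members and lists were chosen with earlier results of these data known. Promoter windows came from the RefSeq table of GRCm38.p6, and probe positions are those of mm9 in the scanner files. The number of arrays limits the precision of every value.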

Additional observations from a re-analysis of the deposited data

How the results depend on the processing

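Counts of called members and median member differences depended on the processing. Under 75th percentile scaling the LPS comparison had 5 higher and 3 lower calls with a median of 0.13, LPS+USP7i against LPS had 3 higher calls with a median of 0.06, and LPS+USP7i against untreated had 9 higher and 1 lower with a median of 0.24. Of the members whose sign changed under that scaling (15 in LPS and 14 in LPS+USP7i against untreated), those called under either scaling were *Ctsh* (0.19), *Ctsz* (0.54) and *Psap* (0.24) in LPS, and *Lipa* (0.40) and *Npc2* (0.34) in LPS+USP7i against untreated, and it moved the all-gene median by 0.40 and 0.44 in these comparisons. Normexp correction gave 16 lower calls in LPS, 10 higher and 1 lower with the inhibitor, and 7 lower in LPS+USP7i against untreated, and the deposited log2 table gave 6, 3 higher and 1. With only probes well above background, 9 members were higher and 1 lower with the inhibitor. Fitting only the groups compared left 0 higher calls with the inhibitor (11 at an unadjusted p under 0.05) and 0 lower calls against untreated (9), and probe means gave 2 higher calls in LPS. The replicate block left 1 higher call with the inhibitor, *Atp6v1h*; *Neu1* (adjusted p = 0.0578), *Lipa* (0.0563), *Npc1* (0.0535) and *Atp6v0d2* (0.0618) were not called, nor were *Ctsh* (0.0523), *Psap* (0.0637) and *Atp6v0d2* (0.0502) in LPS or *Ctsh* (0.0532) and *Naglu* (0.0655) in LPS+USP7i against untreated. It added lower calls of *Hexa* (0.0357), *Gusb* (0.0217) and *Mcoln1* (0.0308) in LPS, where the count stayed at 10, and of *Gusb* (0.0339) in LPS+USP7i against untreated. Differences between replicates 1 and 2 correlated across 20721 probes at 0.468, 0.398 and 0.422 between groups, and arrays of 1 number also share a slide column, but the labels give no other link between them, so they are not taken as pairs. When arrays were left out in turn, LPS calls ranged from 0 to 1 higher and 0 to 11 lower (median −0.48 to −0.30), those with the inhibitor from 0 to 3 higher and 0 to 1 lower (0.16 to 0.28), and those against untreated from 1 to 2 higher and 0 to 1 lower (−0.14 to −0.10), the lone array of a group being assumed to vary like the others. Keeping outlier spots changed no count of called members, and a variance trend kept each count within 1.5 times. The cause of the changes was not tested. With 2 arrays per group, small differences on bright probes and any difference on dim probes are the least certain.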
